A study of Homo sapiens with 6 samples.

Results

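The genes described here encode the enzymes and cofactors that degrade RNA in human cells. They comprise 40 genes in 4 groups: 12 subunits and nucleases of the RNA exosome, 13 genes of deadenylation (the CCR4-NOT complex, PAN2, PAN3 and PARN), 9 genes of nonsense-mediated mRNA decay (NMD), and 6 genes of decapping and 5'-3' decay. Members were chosen by name, as the rows of the deposited expression table whose gene symbol is on this list. All 40 were found among the 74852 loci of the table, and all 40 were among the 18849 loci with enough reads to be tested.

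MDA-MB-231, a human cell line of the triple-negative breast cancer (TNBC) subtype, received siRNAs in 2 rounds of transfection and was harvested 24 h after the second. One group of 3 libraries received a pool of 4 siRNAs that match no intended target (si-CTRL), and the other group of 3 received 4 pooled siRNAs that target SAM68 (si-SAM68), the RNA-binding protein and splicing regulator encoded by KHDRBS1. All libraries come from the same cell line, and neither group is an untransfected control. The labels do not say whether replicates were separate cultures, so that the p-values measure the spread between these libraries, which may be technical.

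An mRNA is usually degraded from its ends. The poly(A) tail is first shortened by PAN2-PAN3 and CCR4-NOT, after which the cap is removed by DCP2 with its activators DCP1A, DCP1B, EDC3 and EDC4, and the body is digested from the 5' end by XRN1. Alternatively, the exosome digests RNA from the 3' end. NMD recognizes transcripts with a premature stop codon through UPF1 and the SMG proteins, and hands them to the same enzymes. Gene expression is given here as the normalized read count, the number of reads on a locus divided by a size factor for the depth of the library. It is not corrected for gene length, so that levels are compared between groups and not between genes.

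KHDRBS1 had a normalized read count of 15660, 14483 and 14737 in si-CTRL replicates 1, 2 and 3, and of 583, 602 and 670 in si-SAM68 replicates 1, 2 and 3. The remaining level was 4.13% of the si-CTRL mean (log2 fold change -4.60, standard error 0.083, adjusted p = 2.13e-09 from limma). The markers of the cell line VIM, CD44, MSN, AXL and CAV1 were at 43113 or more in every library. ESR1, CDH1 and EPCAM were at 15.2 or less and PGR was at 0, and of 6 markers of other cell types (PTPRC, PECAM1, CD3E, HBB, ALB and COL2A1) none was above 16.2. Total reads were between 52625492 and 82568487 per library. Reads of 1 rRNA locus made up 15.1% of si-SAM68 replicate 2, whereas the share was 1.83% to 3.17% elsewhere. si-CTRL replicate 1 stood apart from the other 2 si-CTRL libraries, with a chi-square per degree of freedom of 76.7 and 81.1 against them, while these differed from each other by 12.7. si-SAM68 replicate 2, the library with many rRNA reads, was farther still from its group by this measure, at 390.2 and 392.6 from si-SAM68 replicates 1 and 3, which differed from each other by 20.7. The rRNA locus is counted in these distances, and they were not computed without it. A large distance therefore need not reflect a departure over many loci. Among the 40 RNA decay genes, si-SAM68 replicate 2 was the highest or lowest of all 6 libraries in 7, and si-CTRL replicate 1 was the highest in 19 and the lowest in 10 (72.5% together, against 55.8% of all loci tested). Without si-CTRL replicate 1 the log2 fold change of the members moved by between -0.23 and 0.22, by over 0.1 in 13 of them, and changed sign in 7, none of which was called.

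The sequences of the siRNAs are shown because each strand that guides silencing can also pair with other transcripts through its seed, guide positions 2 to 8. Capitals mark the 7 bases (positions 12 to 18 as listed) that a transcript must share to pair with that seed.
siSAM68_1: gcacccauaugGACGUUAu
siSAM68_2: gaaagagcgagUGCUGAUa
siSAM68_3: uaugauggaugAUAUCUGu
siSAM68_4: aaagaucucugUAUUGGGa
siCTRL_2: ugguuuacaugUUGUGUGa
siCTRL_3: ugguuuacaugUUUUCUGa
siCTRL_4: ugguuuacaugUUUUCCUa
The 4 SAM68 siRNAs each matched the coding sequence of KHDRBS1 in the listed strand, on chromosome 1 of GRCh38 (chr1:32042603-32042621, chr1:32030383-32030401, chr1:32036912-32036930 and chr1:32031595-32031613 for siSAM68_1 to siSAM68_4, plus strand). The control siRNAs were taken to be listed in the same orientation, and siCTRL_1, whose seed match occurs in no member, is not shown.

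To ask whether RNA decay genes changed upon SAM68 depletion, si-SAM68 was compared with si-CTRL. Of the 40 genes, 6 had an adjusted p-value under 0.05 (15%, limma over all loci with Benjamini-Hochberg adjustment), against 10.7% of all loci tested. DCP1A, DCP2, CNOT6 and CNOT6L rose (4 genes, where the background of higher loci was 4.47%), and EDC3 and PAN3 fell (2 genes, background of lower loci 6.23%). Among the 9936 loci whose mean was 500 or more, which include all members except EXOSC6 and DCP1B, the share called was 13.2%. Before adjustment, 9 members had a p-value under 0.05, while 27% of all loci did. At the thresholds of the study (a fold change ≥1.5 and an unadjusted limma p-value not over 0.05) the called members were DCP1A (higher) and EDC3 (lower), and the background was 7.67% of all loci (2.83% higher and 4.83% lower) and 3.51% of loci with a mean of 500 or more. The groups did not overlap in 13 members (32.5%), 7 of them higher and 6 lower in si-SAM68, against 33.9% of all loci and 39.3% of those with a mean of 500 or more. When si-CTRL replicate 1 was left out, 22 members (55%) did not overlap, and 46.5% of all loci did not. The median log2 fold change of the members was -0.03, with 18 above and 22 below 0, and that of all loci was 0.01. The share of members called was thus above that of all loci and near that of loci with as many reads, and the difference was not tested.

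**Figure D1:**
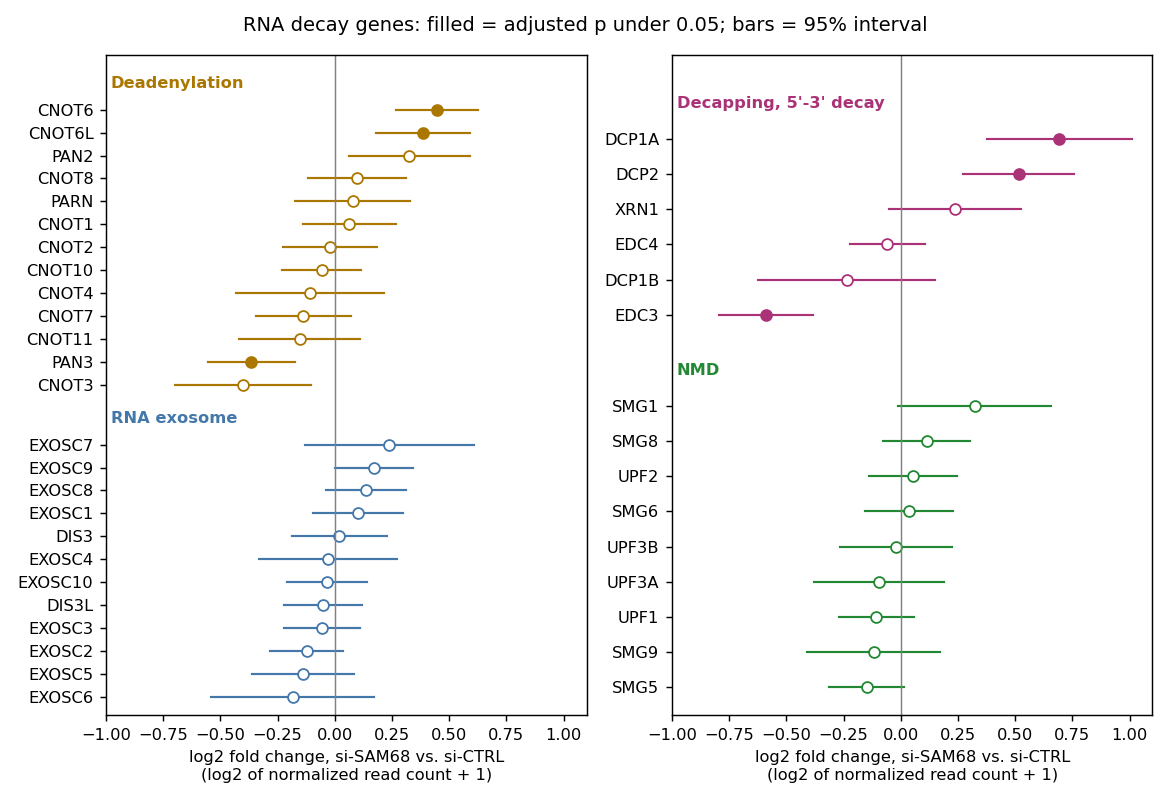
Log2 fold change of si-SAM68 vs. si-CTRL (x axis, log2 of normalized read count + 1) for each of the 40 RNA decay genes, grouped by process and ordered by size within each group. Points are limma estimates from 3 libraries per group, bars are 95% intervals and filled points have an adjusted p-value under 0.05. The 6 filled points lie in the deadenylation and decapping groups, from -0.59 (EDC3) to 0.69 (DCP1A).

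Decapping held 3 of the 6 called genes. DCP1A, which binds the decapping enzyme and activates it (chr3:53317447-53381654 in hg19), had normalized read counts of 1106, 829 and 721 in si-CTRL replicates 1 to 3, and of 1359, 1472 and 1394 in si-SAM68. Every si-SAM68 library lay above every si-CTRL library, and si-CTRL replicate 1 was the nearest to them. The mean rose from 885 ± 199 to 1408 ± 57.7 (SD, n = 3), a log2 fold change of 0.69 with a 95% interval from 0.37 to 1.01 (standard error 0.142, adjusted p = 0.0155). This was the largest change among the 40 genes. Without si-CTRL replicate 1 the log2 fold change was 0.86, whereas without si-SAM68 replicate 1, 2 or 3 the adjusted p-value was 0.0560, 0.0607 or 0.0778.

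DCP2, the hydrolase that removes the cap (chr5:112312407-112534392), had counts of 715, 625 and 586 in si-CTRL and of 836, 950.2 and 963 in si-SAM68, with no overlap between the groups. The mean rose from 642 ± 66.3 to 916 ± 69.8 (SD, n = 3), with a log2 fold change of 0.52 (95% interval 0.27 to 0.76, adjusted p = 0.0174). The call was lost without si-CTRL replicate 3 (adjusted p = 0.0598), si-SAM68 replicate 2 (0.0782) or si-SAM68 replicate 3 (0.0913). The locus of DCP2 overlaps that of MCC, whose log2 fold change was -0.19 (adjusted p = 0.353).

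EDC3, a scaffold that enhances decapping (chr15:74922900-74988386), went in the opposite direction. Its counts were 3346, 2874 and 2710.3 in si-CTRL and 1962, 1976 and 1975 in si-SAM68. The 3 si-SAM68 libraries were nearly equal, and all lay below the si-CTRL libraries. The mean fell from 2977 ± 330.0 to 1971 ± 7.52 (SD, n = 3), a log2 fold change of -0.59 (95% interval -0.79 to -0.38, standard error 0.092, adjusted p = 0.00469). EDC3 was the member called in all 6 fits that left out 1 library, with adjusted p-values of at most 0.0344. Its fold change of 1.504 was at the threshold of the study, and without si-CTRL replicate 1 the log2 fold change was -0.50. Its locus overlaps that of the kinase gene CLK3, with a log2 fold change of -0.28 (adjusted p = 0.241).

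The other decapping genes did not pass the test. EDC4, the large scaffold of the decapping complex, had a log2 fold change of -0.06 with an interval from -0.22 to 0.11, one of the narrowest among the members. XRN1, the 5'-3' exonuclease, had counts of 1645, 1426 and 1342 in si-CTRL and of 1434, 1988 and 1812 in si-SAM68, a log2 fold change of 0.24 (adjusted p = 0.268). DCP1B, the paralog of DCP1A, had counts of 615, 377 and 403 in si-CTRL and of 409, 379.9 and 368 in si-SAM68. Here the si-CTRL replicate 1 value stood above all others, and the log2 fold change was -0.24 (interval -0.62 to 0.15, adjusted p = 0.416). Without that library it was -0.02 (adjusted p = 0.940).

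**Figure D2:**
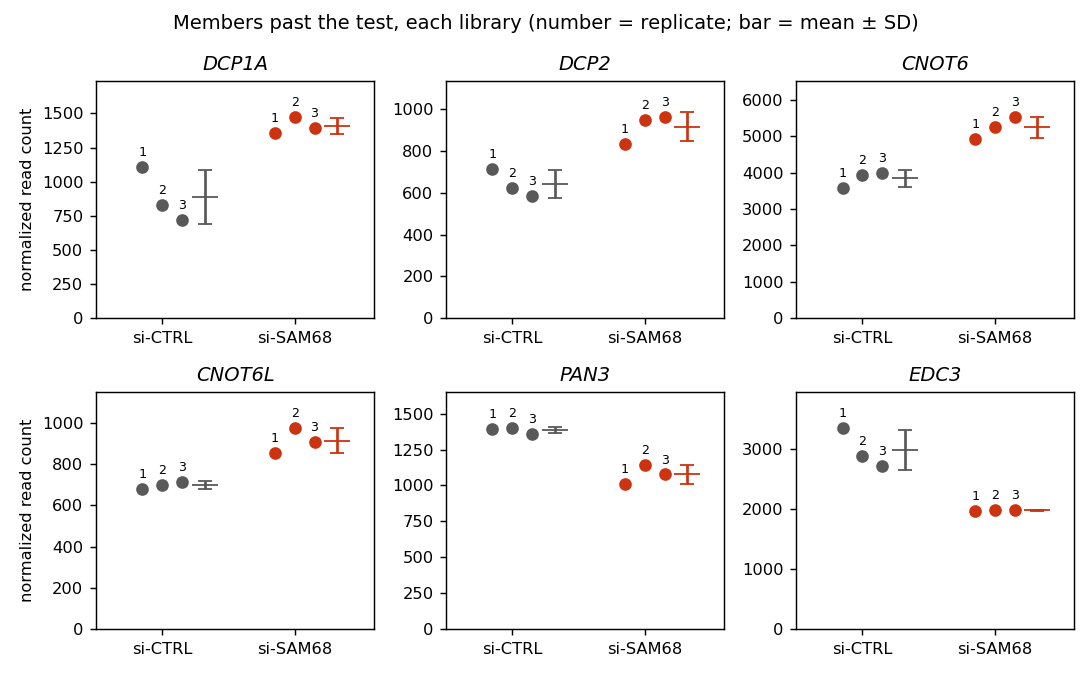
Normalized read count (y axis, from 0) in each library for the 6 RNA decay genes with an adjusted p-value under 0.05. Points are single libraries with their replicate number, and bars are the mean ± SD of 3 libraries. In none of the 6 genes did the groups overlap, and EDC3 in si-SAM68 ranged only from 1962 to 1976.

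Deadenylation held the other 3 called genes. CCR4-NOT carries a pair of nucleases, one from the CNOT6 and CNOT6L pair and one from the CNOT7 and CNOT8 pair. CNOT6 (chr5:179921399-180005404) had counts of 3587, 3949 and 4002 in si-CTRL and of 4936, 5269 and 5525 in si-SAM68. All si-SAM68 libraries lay above the highest si-CTRL library. The mean rose from 3846 ± 226 to 5243 ± 295 (SD, n = 3), with a log2 fold change of 0.45 (95% interval 0.27 to 0.63, adjusted p = 0.00891), and the call was lost in 1 of 6 fits, without si-SAM68 replicate 3 (adjusted p = 0.0569).

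CNOT6L (chr4:78634541-78740544), the paralog of CNOT6, had counts of 679.9, 701 and 716 in si-CTRL and of 856, 977 and 910.4 in si-SAM68. It rose from 699 ± 18.1 to 915 ± 60.4 (SD, n = 3), with a log2 fold change of 0.39 (95% interval 0.18 to 0.59, adjusted p = 0.0284). Leaving out any library other than si-CTRL replicate 1 ended this call, with adjusted p-values from 0.0517 (without si-SAM68 replicate 1) to 0.139 (without si-SAM68 replicate 2), by way of si-CTRL replicate 2 (0.0641), si-CTRL replicate 3 (0.0667) and si-SAM68 replicate 3 (0.103). CNOT6L lies within the span of the CCNI locus, whose log2 fold change was 0.19 (adjusted p = 0.143).

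CNOT7 and CNOT8, the other nuclease pair, did not pass the test. CNOT7 had counts of 4786, 4221 and 4159 in si-CTRL and of 3719, 3849.7 and 4405 in si-SAM68, and those of CNOT8 were 2015.98, 2521 and 2437 against 2479, 2440.5 and 2502. Their log2 fold changes were -0.14 (interval -0.34 to 0.07) and 0.10 (interval -0.12 to 0.31).

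PAN3, which carries the PAN2 nuclease to the poly(A) tail (chr13:28712643-28869475), had counts of 1397, 1401 and 1361 in si-CTRL and of 1012, 1145 and 1077 in si-SAM68. The mean fell from 1387 ± 22.1 to 1078 ± 66.4 (SD, n = 3), with a log2 fold change of -0.36 (95% interval -0.56 to -0.17, adjusted p = 0.0259). As with CNOT6L, this call held only where si-CTRL replicate 1 was the library left out: the adjusted p-value was 0.0688 without si-CTRL replicate 2, 0.0665 without si-CTRL replicate 3, and 0.0866, 0.0668 and 0.0980 without si-SAM68 replicates 1, 2 and 3. The short antisense locus PAN3-AS1, which overlaps PAN3, had a log2 fold change of -0.41 (adjusted p = 0.131).

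PAN2, the catalytic partner of PAN3, had counts of 1969.7, 1389.9 and 1666 in si-CTRL and of 2129, 2064 and 2045 in si-SAM68. The groups did not overlap, but the log2 fold change of 0.33 had an adjusted p-value of 0.111. Without si-CTRL replicate 1 it was 0.00599. CNOT3, which links CCR4-NOT to its RNA-binding partners, had counts of 6377, 4415 and 4568 in si-CTRL and of 3986, 3963 and 3529.9 in si-SAM68, again without overlap. Its log2 fold change was -0.40 (interval -0.70 to -0.11, adjusted p = 0.0827), and without si-CTRL replicate 1, its highest library, it was -0.23 (adjusted p = 0.0518). DESeq2 on the recovered reads, which called 16.8% of the 16640 loci to which it gave an adjusted p-value, also called CNOT3 (adjusted p = 0.0185). PARN, a nuclear deadenylase, had a log2 fold change of 0.08 with all libraries (adjusted p = 0.704), and an adjusted p-value of 0.0489 without si-CTRL replicate 1, which at 6573 was its highest library. The scaffold CNOT1 had a log2 fold change of 0.06, and CNOT2, CNOT4, CNOT10 and CNOT11 were between -0.15 and -0.02. Without si-CTRL replicate 1, those of CNOT2, CNOT4 and CNOT11 were 0.08, 0.08 and -0.01.

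None of the 12 exosome genes passed the test (limma), where 10.7% of all loci did. 1 had an unadjusted p-value under 0.05, as 27% of all loci did. DESeq2 and edgeR on the recovered reads called none either (16.8% and 10.7% of their loci). The log2 fold changes of the 12 genes were between -0.18 (EXOSC6) and 0.24 (EXOSC7), with 5 above and 7 below 0 and a median of -0.03. Of the ring subunits, EXOSC7 had counts of 985, 1575 and 1596 in si-CTRL and of 1592, 1554 and 1644 in si-SAM68. Only si-CTRL replicate 1 was low, and without it the log2 fold change was 0.01. EXOSC9 was the gene with the unadjusted p-value under 0.05, with counts of 3440, 3322 and 3587 against 3766, 3780 and 4112, no overlap and a log2 fold change of 0.17 (interval 0.00 to 0.34, adjusted p = 0.184). EXOSC8 did not overlap between groups either, with a log2 fold change of 0.14 (adjusted p = 0.300). The ring subunits EXOSC4 and EXOSC5 had log2 fold changes of -0.03 and -0.14. The cap subunits EXOSC1, EXOSC2 and EXOSC3 were between -0.12 and 0.10, and the catalytic subunits DIS3, DIS3L and EXOSC10 between -0.05 and 0.02. For DIS3, the main nuclease of the exosome, the 95% interval ran from -0.19 to 0.23, and for DIS3L, its cytoplasmic paralog, from -0.22 to 0.12. The value of EXOSC3 belongs to a locus that joins it with SHB, SLC25A51 and TOMM5, and that of EXOSC6 to a locus of 966 kb (chr16:69934429-70900733) within which several other tested genes lie.

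NMD genes were the other group without a call, with 0 of 9 past the test by limma (10.7% of all loci). At an unadjusted p-value under 0.05 there were also 0 (27% of all loci). DESeq2 and edgeR on the recovered reads called 0 as well (16.8% and 10.7% of their loci). The log2 fold changes ran from -0.15 (SMG5) to 0.32 (SMG1), with a median of -0.02. UPF1, the central helicase, had counts of 10461, 9604 and 9720.5 in si-CTRL and of 9501, 9369 and 8792 in si-SAM68. These did not overlap, but differed by a log2 fold change of only -0.11 (interval -0.27 to 0.06, adjusted p = 0.384). SMG5, an adaptor that brings UPF1 to deadenylation and decapping, did not overlap either, with 7975, 7656 and 7808 against 7358, 7194 and 6599 (log2 fold change -0.15, adjusted p = 0.224). SMG6, the endonuclease of the pathway, had a log2 fold change of 0.04, SMG8 and SMG9, which regulate the SMG1 kinase, of 0.11 and -0.12, and the adaptors UPF2, UPF3A and UPF3B were between -0.10 and 0.05.

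SMG1, the kinase that phosphorylates UPF1, had the widest spread of the NMD genes. Its counts were 5965, 9015 and 6855 in si-CTRL and 7698, 10203 and 9202 in si-SAM68, so that the groups overlapped, while each si-SAM68 library was above the si-CTRL library of the same number. The log2 fold change was 0.32 (interval -0.01 to 0.66, adjusted p = 0.198), and with the replicate number as a block the adjusted p-value was 0.0476. Without si-CTRL replicate 2 it was 0.0420. SMG1 has several near-identical pseudogene copies, so that the assignment of its reads is uncertain.

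**Figure D3:**
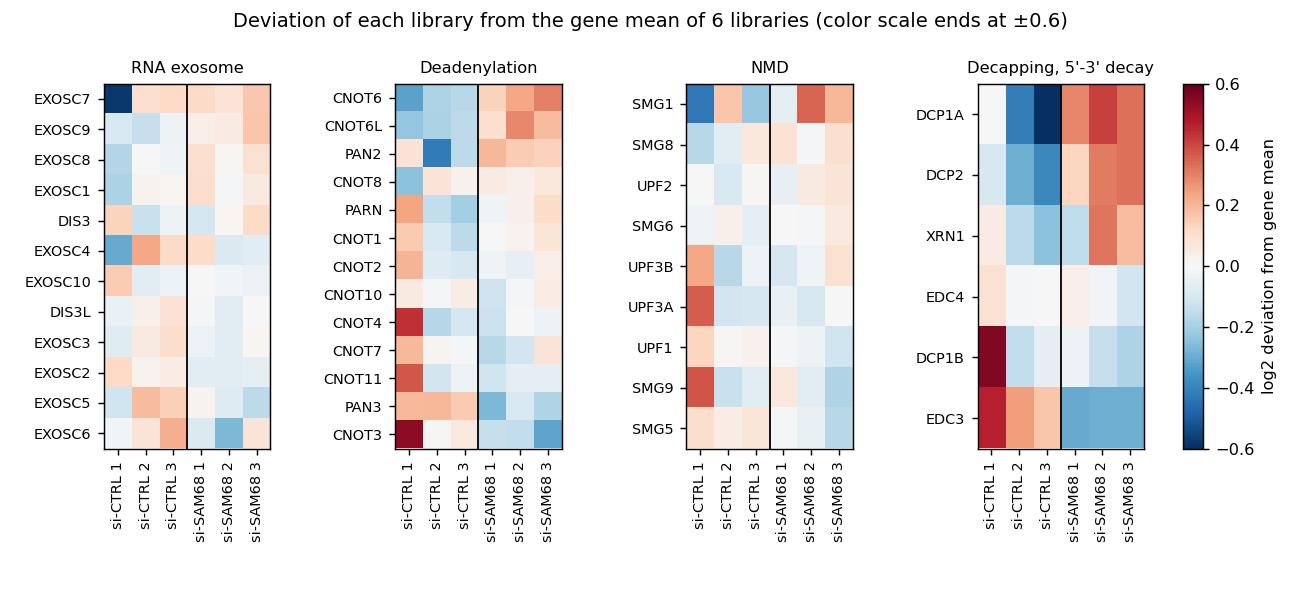
Deviation of each library (columns) from the mean of 6 libraries for the 40 RNA decay genes (rows), in log2 of normalized read count + 1, by process. Red is above and blue below the mean of the gene, and the color scale ends at 0.6 in each direction. The first column, si-CTRL replicate 1, has the extreme value in 29 of the 40 genes.

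Library by library, si-CTRL replicate 1 moved differently in the 4 groups. Its median deviation from the mean of 6 libraries was 0.19 in the deadenylation genes, 0.10 in the NMD genes and 0.07 in the decapping genes, but -0.08 in the exosome genes, on the log2 scale. In the median of all loci it was 0.00. The si-CTRL replicates 2 and 3 were between -0.15 and -0.04 in the first 3 groups and at 0.03 and 0.07 in the exosome genes. Without si-CTRL replicate 1, the called members were 8, with PAN2 and PARN added, and 15.1% of all loci were called. Fits without another library called fewer members and fewer loci: 5 without si-CTRL replicate 2 (8.45% of loci), 3 without si-CTRL replicate 3 (5.85%), 3 without si-SAM68 replicate 1 (4.90%), 2 without si-SAM68 replicate 2 (4.29%) and 1, EDC3, without si-SAM68 replicate 3 (3.32%). Without both si-CTRL replicate 1 and si-SAM68 replicate 2, a choice made after the data were seen, 6 members were called, with PAN2 in place of CNOT6L (10.4% of loci).

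Since 5 pairs of members are paralogs that take the same place in their complex, the ratio of their counts was compared between groups in a two-sided exact permutation test, in which 3 libraries against 3 cannot reach a p below 0.1. DCP1A to DCP1B was the pair whose ratio did not overlap between the groups. The ratio was 1.80, 2.20 and 1.79 in si-CTRL and 3.32, 3.87 and 3.79 in si-SAM68, a difference of 0.93 in the log2 ratio (exact permutation p = 0.1, adjusted over the 5 pairs 0.5). CNOT6 to CNOT6L, which both rose, changed by 0.06 in the log2 ratio (exact permutation p = 0.4). The ratio of CNOT7 to CNOT8 changed by -0.23 (exact p = 0.3), UPF3A to UPF3B by -0.08 (exact p = 0.3) and DIS3 to DIS3L by 0.07 (exact p = 0.7), with overlapping groups in each.

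**Figure D4:**
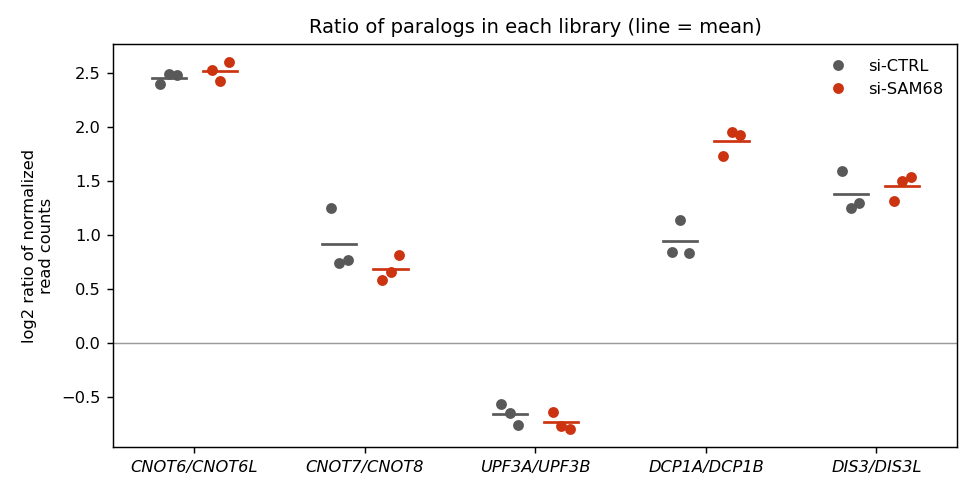
Log2 ratio of the normalized read counts of 2 paralogs (y axis) in each library, for 5 pairs of RNA decay genes, with lines at the mean of 3 libraries. The counts are not corrected for length, so that the height of a pair carries no meaning and the difference between the colors is what is compared. The DCP1A/DCP1B pair is the one in which the groups are apart, by 0.93.

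Other genes of the same pathways, taken from lists of cofactors and partners, were tested in the same way. Of 74 such genes 73 were tested, the exception being GSPT2, which was at 0 in every library, and 10 passed the test (13.7%), 7 higher and 3 lower. Of all loci 10.7% passed (4.47% higher and 6.23% lower), and of those with a mean of 500 or more 13.2%. The median of all 73 was 0.03 (log2). Among the partners of deadenylation, 5 of 26 passed. TNRC6A, which connects miRNA-bound Argonaute to CCR4-NOT and PAN2-PAN3, had the largest change, from 8119, 7486 and 6678 in si-CTRL to 4658, 4842 and 4673 in si-SAM68 (log2 fold change -0.65, adjusted p = 0.00207), and was called in all 6 fits that left out 1 library. BTG2 and TOB1, antiproliferative proteins that bind the CNOT7 and CNOT8 nucleases, rose by 0.55 (adjusted p = 0.0115) and 0.42 (adjusted p = 0.00709). TOB1 was called in all 6 such fits, while BTG2 was lost without si-SAM68 replicate 1 (0.0513) or replicate 3 (0.0516). ANGEL2, of the same nuclease family as CNOT6, rose by 0.37 (adjusted p = 0.0247). The locus of PABPN1, the nuclear poly(A)-binding protein, which the table joins with BCL2L2, had a log2 fold change of -0.29 (adjusted p = 0.0456, and 0.0725 with the replicate block).

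Of the 16 exosome cofactors, RBM7, a subunit of the nuclear exosome targeting complex, rose by 0.42 (adjusted p = 0.0113), and the nuclear 5'-3' exonuclease XRN2 had a log2 fold change of -0.29 (adjusted p = 0.0323, and 0.0560 with the replicate block). Of 15 tested genes of NMD and the exon junction complex, 3 rose: PNRC1 by 0.37, NBAS by 0.32 and PNRC2 by 0.31 (adjusted p = 0.0137, 0.0225 and 0.0242). Of 16 further genes of decapping, among them DDX6 and the LSM subunits, 0 passed (10.7% of all loci). By limma, 3 had an unadjusted p-value under 0.05 (27% of all loci). All the called cofactors and partners but TNRC6A and TOB1 lost the call in 1 or more of the fits with 5 libraries. Those of XRN2, PABPN1 and PNRC2 were lost in each fit that left out a library other than si-CTRL replicate 1, ANGEL2 and NBAS were lost without si-CTRL replicate 2 or 3 or si-SAM68 replicate 2 or 3, PNRC1 without si-SAM68 replicate 1 or 3, and RBM7 without si-SAM68 replicate 3.

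As a readout of NMD, 20 genes whose transcripts are commonly described as its targets were examined, such as the snoRNA host genes GAS5 and SNHG1 and the splicing factor SRSF3. By limma 0 of 20 passed (10.7% of all loci), with 4 at an unadjusted p-value under 0.05 (27% of all loci). edgeR called 0 (10.7% of all loci). DESeq2, which called 16.8% of the loci it gave an adjusted p-value, called GADD45A (log2 fold change -0.29, adjusted p = 0.0471). This gene was named after its values were seen. The median log2 fold change of the 20 genes was 0.02, with 12 above and 8 below 0. The read count of a gene sums all its isoforms, so that these values describe levels and not decay.

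Sequence matches to the siRNA seeds in the members' 3'UTRs were then listed, a description added after the values of the genes were known. For every gene, the search covered its longest 3'UTR annotated by GENCODE 29 (GRCh38). At least 1 match to the SAM68 pool occurred in 15 of 40 members (37.5%), against 29.7% of 11962 tested genes with a 3'UTR. The median log2 fold change was -0.14 in members that had a match and 0.04 in the others, while over all genes both medians were -0.01. Both members that fell had a match, as did CNOT3, and none of the 4 that rose had one, while PAN3 also had 2 matches to the control pool and CNOT3 had 1. The called cofactors and partners divided in this way only in part. RBM7, TOB1, NBAS and PNRC1 rose without a SAM68 match, and TNRC6A and XRN2 fell with 1. BTG2, ANGEL2 and PNRC2, however, rose with 1 SAM68 match each, and PABPN1 fell with none and with 5 control matches. The sites are shown with 11 bases on either side, capitals marking the match.
EDC3, siSAM68_2 (chr15:74632013-74632019, minus strand): tccaagttttaTGCTGATttttccaagga
EDC3, siSAM68_4 (chr15:74631928-74631934, minus strand): tggtgttactgTATTGGGattttatgttg
PAN3, siSAM68_4 (chr13:28294861-28294867, plus strand): catttagttttTATTGGGaatggttttca
CNOT3, siSAM68_2 (chr19:54155445-54155451, plus strand): cttcccccgcaTGCTGATccccctgccca
EDC3 was the member with matches to 2 SAM68 siRNAs and none to the control pool, besides SMG5, which had 2 matches and a log2 fold change of -0.15. XRN1 and DIS3 each had 3 matches, with log2 fold changes of 0.24 and 0.02, and long 3'UTRs of 4904 and 7626 bases. Among all genes, 114 had at least 2 matches to the SAM68 pool and none to the control pool, and of these 14.9% fell and 1.75% rose by the same test, with a median log2 fold change of -0.11. Of all genes with a 3'UTR, 8.13% fell and 5.28% rose.

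The 4 members that rose had many matches to the control pool: 11 in CNOT6L, 8 in CNOT6, 7 in DCP1A and 4 in DCP2. Their 3'UTRs were also long, at 7044, 4205, 4152 and 7486 bases, where the median member had 1315. Examples of these sites, from the siRNA with the most matches in each of these genes, are the following.
CNOT6, siCTRL_4 (chr5:180574450-180574456, plus strand): gtcataagagaTTTTCCTatttcttctac
CNOT6L, siCTRL_4 (chr4:77719978-77719984, minus strand): aaaccttgaatTTTTCCTttataactgac
DCP1A, siCTRL_4 (chr3:53286754-53286760, minus strand): gcacagccttaTTTTCCTtttctgtcatt
Of the 7 matches in DCP1A, 4 lay between 798 and 846 bases after the stop codon. CNOT7, DIS3 and EXOSC6 had 7, 5 and 4 control matches as well, besides matches to the SAM68 pool, and did not pass the test. Among all genes, 564 had no match to the SAM68 pool and 4 or more to the control pool, of which 10.99% rose and 4.61% fell, with a median log2 fold change of 0.05. Of genes with 4 or more control matches and at least 1 match to the SAM68 pool, 8.75% rose and 8.55% fell. Of all genes with 3'UTRs of over 4000 bases, with or without matches, 8.92% rose and 8.67% fell. This set includes 222 genes without a SAM68 match and with 4 or more control matches, of which 12.6% rose and 5.86% fell. Of the 456 genes of this length without a SAM68 match, which include these 222, 8.99% rose and 7.24% fell. Of the genes of this length with a SAM68 match, 8.89% rose and 9.24% fell. The parts of length and of control matches in these shares were not tested. The part of these matches in the changes of the 6 members was not tested, and a match to the letters of a seed is not evidence of pairing in the cell. The si-CTRL and si-SAM68 pools are each present in 1 group only, so that effects of the siRNAs beyond SAM68 and effects of SAM68 loss cannot be told apart in this design.

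**Figure D5:**
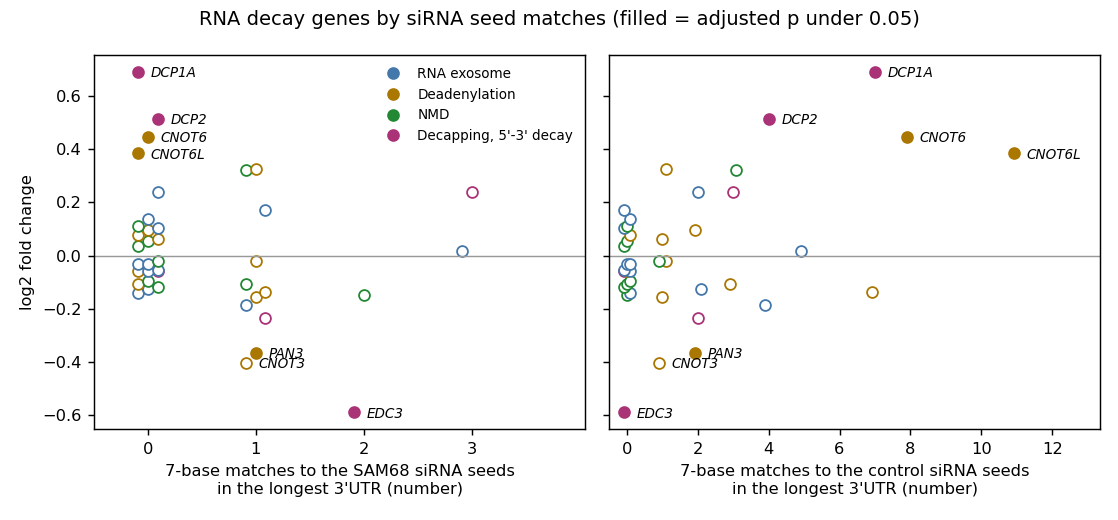
Log2 fold change (y axis) of the 40 RNA decay genes against the number of matches of 7 bases to the seeds of the SAM68 siRNAs (left) and of the control siRNAs (right) in the longest 3'UTR. Filled points have an adjusted p-value under 0.05, colors give the process, and points are shifted sideways by up to 0.09 to keep them apart. The 4 genes that rose are at 0 matches on the left and at 4 to 11 on the right, and EDC3 is at 2 and 0.

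The promoters of the members were searched for common motifs, also after the values were known. Of the 40 genes, 35 matched an entry of the RefSeq promoters (GRCh38.p14, 250 bases before to 50 after the start), with a median GC content of 64.3% against 65.3% for tested genes. The CCAAT box (CCAAT, either strand) occurred in 45.7% of them and in 36.2% of the promoters of tested genes (35.7% of all promoters), the GC box (GGGCGG) in 80.0% and 69.4% (44.6% of all), and an ETS motif (CCGGAAG) in 17.1% and 17.8% (10.7% of all). The other motifs searched were the NRF1 core (GCATGCG, 11.4% and 5.90%), the YY1 core (ATGGCGG, 14.3% and 9.74%), the E-box (CACGTG, 8.57% and 9.79%) and the TATA box (TATAAA, 2.86% and 5.72%). None of these differences was tested. EDC3 was the called gene with the ETS motif, CNOT6 and DCP2 had a CCAAT box, and 5 of the 6 called genes had a GC box.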

How the data were processed

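RNA of MDA-MB-231 cells (3 si-CTRL and 3 si-SAM68 libraries) was sequenced after poly(A) selection. The labels name a stranded kit, and a culture medium, extraction kit and harvest time that differ from the methods of the paper. The authors deposited a signal, namely reads per FAST DB locus (hg19) over the DESeq2 size factor of the library. The submitters' processing notes name STAR 2.4.0, FastQC, Picard, SAMtools and DESeq2. The counting program and its strand setting are not given in the sources used here, so that overlapping loci can share reads. All values (100%) were whole multiples, within 0.01 reads, of a fixed step in their library, so that whole reads could be recovered. For si-SAM68 replicate 1 this step was 1.007, which an automatic test cannot separate from 1.

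The members, lists, tests and alternatives were chosen with earlier results of these data known. Normalized read counts were transformed as log2(value + 1), which understates changes of low genes, and the 18849 loci averaging 10 or more were tested with limma 3.58.1 (R 4.3.3, lmFit, eBayes with trend), with Benjamini-Hochberg adjustment over all of them and no term for replicate. No library was dropped or imputed. Programs were tested on simulated data. Fully described are members with an adjusted p-value under 0.05, the largest and smallest changes of each group, and paralogs, and of the other lists those past the test, at most 6 a list. Genes named beyond this were chosen after their values were seen. Alternatives were other pseudocounts, filters and scalings, eBayes without trend, a replicate block, each library left out, edgeR 4.0.16 and DESeq2 1.42.0 on the recovered reads, and, added after seeing the data, edgeR with the block and a fit without 2 libraries. Deviations from group means correlated by 0.105, 0.231 and 0.125 between libraries of the same number and by -0.125 to 0.007 between others. The numbers may thus pair the libraries, but this was not established. Neither the main fit nor the permutation test of the paralogs uses such a pairing. The depth given with the results limits precision by counting error, and 3 libraries per group limit it further.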

Additional observations from a re-analysis of the deposited data

How the results depend on the processing

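The log2 fold change of KHDRBS1 stayed between -4.66 and -4.54 under all alternatives, and each paralog ratio kept its direction. The median log2 fold change of the members stayed between -0.05 and 0.04 and was above 0 in the fits without si-CTRL replicate 1. Values of single genes under alternatives were counted for the 40 members and the 10 called cofactors and partners. The latter were included because they were called, so that they could lose a call but not gain one. Of these 900 values, 807 kept direction and side of the threshold, 65 lost and 7 gained a call, and 21 changed direction. The last belong to 11 members that were not called, and all come from fits with fewer libraries, in which the log2 fold changes ranged as follows: CNOT1 (-0.00028 to 0.16), CNOT2 (-0.074 to 0.096), CNOT4 (-0.22 to 0.085), CNOT8 (-0.0027 to 0.16), DIS3 (-0.043 to 0.092), EXOSC10 (-0.074 to 0.035), EXOSC4 (-0.19 to 0.078), PARN (-0.0054 to 0.22), SMG9 (-0.22 to 0.043), UPF3A (-0.18 to 0.085) and UPF3B (-0.11 to 0.10). None of the 6 called members changed direction under any alternative. The 6 members with an adjusted p-value under 0.05 (4 higher, 2 lower) were also those called with pseudocounts of 0.1 and 5, both other filters, both other scalings and edgeR. Without a trend in eBayes 2 remained (CNOT6 higher, 1, and EDC3 lower, 1), as 4.77% of all loci did, and the cause was not tested. The count was 7 with DESeq2 (CNOT3 added, 16.8% called of the 16640 loci to which it gave an adjusted p-value), 7 with the replicate block in limma or edgeR (SMG1 added, 9% and 9.14% of loci), and 7 at an adjusted p-value under 0.1 (17.5% of loci). Leaving out each library in turn gave from 1 to 8 members, 0 to 6 higher and 1 to 2 lower, with fewer libraries in the fit. The count was 8, 5 and 3 with si-CTRL replicates 1, 2 and 3 left out, and 3, 2 and 1 with si-SAM68 replicates 1, 2 and 3 left out. By the study thresholds, 2 members were called in the main fit, against 7.67% of all loci. More members were called at a lower fold change threshold. No share of all loci is given here for that threshold, so that this rise cannot be set against a background. The 2 became 1 without both si-CTRL replicate 1 and si-SAM68 replicate 2, and were 1 to 2 with each library left out (1 without si-CTRL replicate 3). The genes were not always the same. Without si-CTRL replicate 1, DCP2 passed a fold change of 1.5 (log2 fold change 0.60) and EDC3 did not (-0.50). Shares of all loci by the study thresholds are not given for these fits. The 10 cofactors and partners became 2 without the trend and 2 to 17 with each library left out, 2 without si-SAM68 replicate 3, 5 without si-SAM68 replicate 1 or 2 or si-CTRL replicate 2 or 3, and 17 without si-CTRL replicate 1. The share of all loci called moved as well. It was 4.77% without the trend, 3.32% without si-SAM68 replicate 3 and 15.1% without si-CTRL replicate 1. The 0 NMD-sensitive genes became 1 with DESeq2 and 2 at an adjusted p-value under 0.1. The replicate block added DHX34, an NMD helicase (log2 fold change -0.45, adjusted p = 0.0732 without and 0.0382 with the block), and beside it, SMG1, XRN2 and PABPN1 changed no other call among the listed genes. Over all loci, 2017 calls became 899 without the trend, 1500 without a filter and 625 to 2839 with each library left out. The 95% intervals of the members that were not called lay within -0.70 and 0.66 on the log2 scale. They are not adjusted for the number of loci, and those of CNOT3, PAN2 and EXOSC9 do not include 0. For the other members that were not called, a change within the interval of a gene cannot be told from none.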
